A study of Mus musculus with 12 samples.

Results

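The microRNAs of the miR-17-92 cluster (miR-17, miR-18a, miR-19a, miR-20a, miR-19b and miR-92a) and of its paralog on the X chromosome, the miR-106a-363 cluster (miR-106a, miR-18b, miR-20b, miR-19b, miR-92a and miR-363), were followed in mouse lung by assay name. The name rule took in 10 of the 762 assays on the array, and 7 of them gave values. The assays for miR-18b and miR-363 and a further assay for miR-20b gave none. No assay carried the name miR-92a, so the assay named miR-92, the older name of the same microRNA, was taken in beside them, which made 8 assays described. All 8 had a value in every mouse, passed the filter on low values, and entered the tests among 296 microRNA assays.

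Each sample was total RNA from the lung of 1 C57BL/6 mouse, 12 mice in all, measured by TaqMan quantitative PCR on OpenArray slides. Mice 15, 17 and 18 ate a diet with 10% flaxseed for 21 days and received 13.5 Gy of radiation. Mice 11, 12 and 13 ate the flaxseed diet and were not irradiated. Mice 7, 8 and 9 ate the control diet and received 13.5 Gy. Mice 2, 4 and 5 ate the control diet and were not irradiated. Lungs were taken 48 h after radiation. The sources used here state neither the age nor the sex of the mice, nor whether the chest or the whole body was irradiated. The design compares diet with and without radiation, and radiation on either diet.

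A microRNA cluster of this kind is transcribed as a long primary RNA from which several hairpins are cut, and each hairpin yields a mature strand of its own. The seed, the bases near the 5′ end of the mature strand, is the main determinant of the messenger RNAs that it silences, so members of a cluster fall into seed families that do not follow their order along the RNA. The miR-17-92 cluster is induced by Myc and E2F factors, favours proliferation and survival, and is high in the embryonic lung and in lymphoid precursors. Mice that lack it die at birth with small lungs, whereas loss of the miR-106a-363 cluster alone gives no obvious defect.

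The mature sequences show how alike the assayed RNAs are, and the seed (bases 2 to 8) is in capitals. They are those of RefSeq, build GRCm38.p6. The 6 hairpins of the miR-17-92 cluster lie at chr14:115043671-115044506 on the plus strand, within 836 bases. The 6 hairpins of the miR-106a-363 cluster lie at chrX:52741693-52742567 on the minus strand, within 875 bases. A first family shares the seed AAAGUGC.
miR-17: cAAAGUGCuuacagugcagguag
miR-20a: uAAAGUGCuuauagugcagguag
miR-106a: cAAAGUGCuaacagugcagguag
miR-20b: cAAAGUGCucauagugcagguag
In this family miR-106a differs from miR-17 by U10A alone, counted from the 5′ end. The change from miR-20a to miR-20b is U1C and U10C. The miR-18 family has another seed.
miR-18a: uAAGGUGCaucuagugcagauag
The miR-19 family differs by 1 base, and the change from miR-19a to miR-19b is U11C.
miR-19a: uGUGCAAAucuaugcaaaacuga
miR-19b: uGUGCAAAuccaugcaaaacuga
The miR-92 family closes both clusters.
miR-92a: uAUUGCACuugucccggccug
The mature miR-19b and miR-92a are made from both loci, so their assays could not tell the chromosome of origin. Assays for sequences that differ by 1 or 2 bases may also detect each other in part, and the sources used here do not state how specific they are.

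Values are relative threshold cycles (Crt), a log2 scale on which a reaction with more template has a lower value. The level used below is the mean Crt of 260 microRNA assays in the same mouse minus the Crt of the assay, so that a higher level means more of the microRNA. Levels of different assays are not compared as amounts, since PCR efficiencies per assay are unknown. In whole lung, fewer cells of a type and less RNA per cell cannot be told apart.

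The unirradiated flaxseed mice stood apart in detection, with 281 to 297 microRNA assays detected, against 307 to 312 in the other 9 mice. Their mean Crt was 20.07 to 21.2, against 19.44 to 20.09, and these ranges overlapped slightly. A 4th decimal was present in 42.1% to 50% of the Crt values of the irradiated flaxseed and unirradiated control mice, and in 2.25% to 3.11% of those of the other 6 mice. This split runs along the interaction of diet with radiation, so the interaction and whatever lies behind the split cannot be told apart. Every comparison that changes diet alone or radiation alone also lies across the split, and the same limit holds for it. Epithelial markers gave 8 assays detected in all 12 mice, and the endothelial marker miR-126# was detected in all 12. The liver marker miR-122 gave no value.

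Among the members, miR-19a and miR-20b passed the test in at least 1 of the comparisons, and the other 6 passed in none. miR-19a was lower in unirradiated flaxseed lungs than in each other group. miR-20b was lower in irradiated flaxseed lungs than in irradiated control lungs and unirradiated flaxseed lungs. Of all 296 assays, 12.2% were called for flaxseed in unirradiated mice and 5.07% for flaxseed in irradiated mice. The share was 14.5% for radiation on the flaxseed diet and 13.9% for unirradiated flaxseed against irradiated control lungs. No member passed for radiation on the control diet, where 0% of all assays were called.

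**Figure D1:**
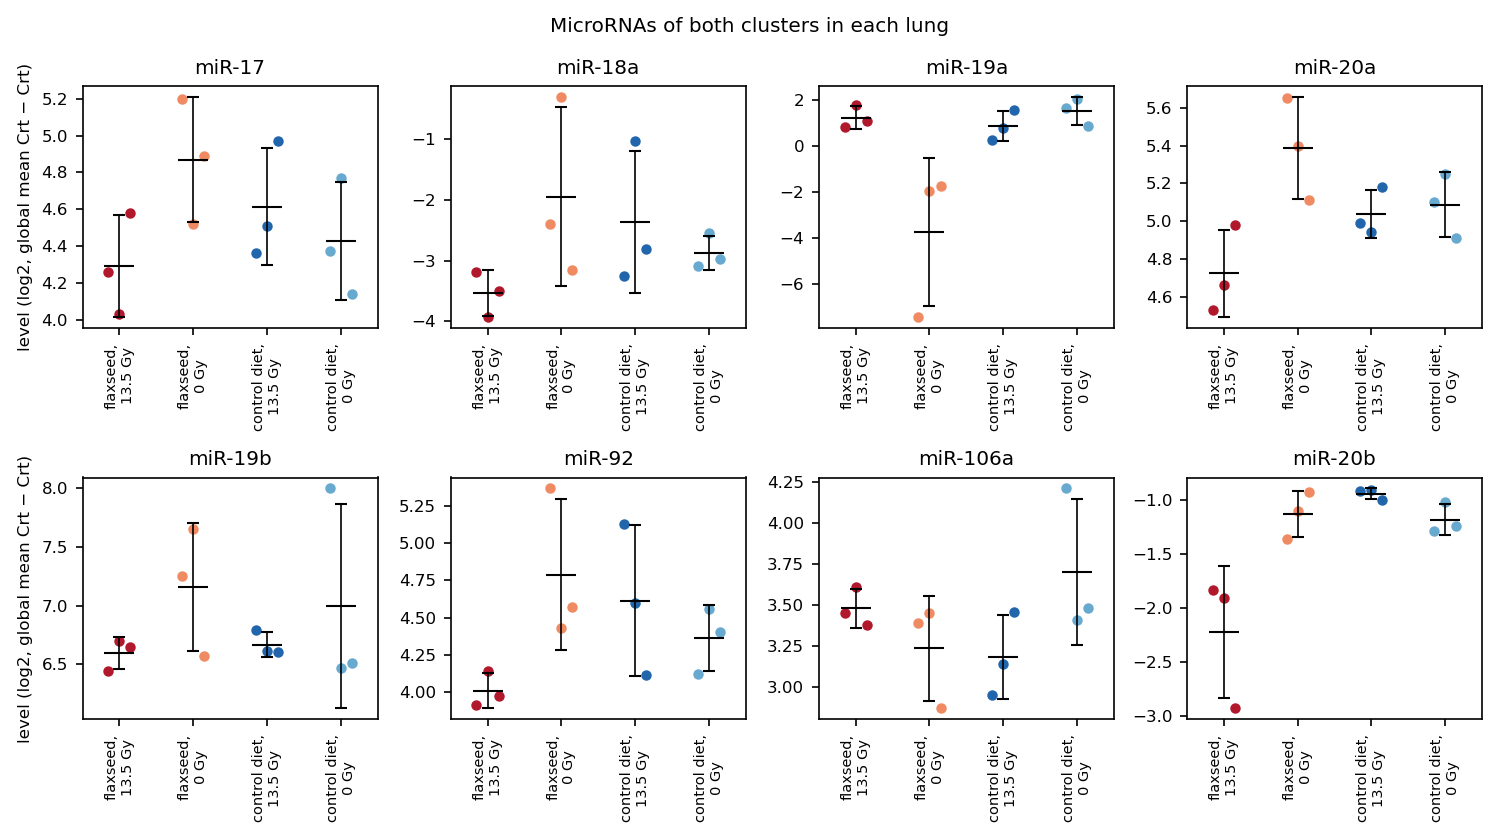
Level of the 8 microRNAs in each of 12 lungs (vertical axis, log2, mean Crt of 260 assays minus Crt; scales differ between panels) by diet and radiation (horizontal axis). Points are mice, bars are the mean and SD of 3 mice. The 3 unirradiated flaxseed lungs lie below all others for miR-19a, and the 3 irradiated flaxseed lungs lie below all others for miR-20b.

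The miR-19 family is the part of the cluster to which its oncogenic activity has been traced in mouse lymphoma. The level of miR-19a was 0.84, 1.80 and 1.09 in irradiated flaxseed lungs, −7.46, −1.98 and −1.76 in unirradiated flaxseed lungs, 0.27, 0.80 and 1.56 in irradiated control lungs, and 1.68, 2.06 and 0.88 in unirradiated control lungs. Every unirradiated flaxseed lung was below every lung of the other groups, which overlapped among themselves. Between unirradiated flaxseed and unirradiated control lungs, 28.4% of all assays had groups that did not overlap. The share of assays with a group below all other lungs is not given here. In Crt, the 3 unirradiated flaxseed lungs read 27.87, 22.04 and 22.96, against 17.64 to 19.48 in the other 9. The first of them, mouse 11, was just inside the detection limit of 28.

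With flaxseed in unirradiated mice, miR-19a fell by 5.27 ± 1.22 (SE) on the log2 scale, 38.6-fold, with a 95% confidence interval of −7.97 to −2.57 (limma, Benjamini-Hochberg adjusted p = 0.0196, n = 3 each). It was the only call among the 8 members, in a comparison that called 12.2% of all 296 assays. Without mouse 11 the difference was −3.35 (adjusted p = 0.00232), and without the unirradiated control mouse 4 it was −5.01 and did not pass (adjusted p = 0.0651). In a fit of the compared groups alone the difference of −5.27 had an adjusted p of 0.128.

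On the flaxseed diet, miR-19a was higher with radiation than without by 4.97 ± 1.22 on the log2 scale (31.4-fold, adjusted p = 0.0247). Without mouse 11 this difference was 3.05 (adjusted p = 0.00337). It missed the threshold without each irradiated flaxseed mouse in turn, with adjusted p of 0.0592 without mouse 15, 0.0937 without mouse 17 and 0.0517 without mouse 18, and in a fit of the compared groups alone (adjusted p = 0.0982). Both comparisons share the unirradiated flaxseed mice. With flaxseed in irradiated mice the difference of miR-19a was 0.37 ± 1.22, with an interval of −2.33 to 3.07. The SE in each of these comparisons comes from a spread shared by all 4 groups, which was unequal. The SD of miR-19a was 0.50 in irradiated flaxseed, 3.23 in unirradiated flaxseed, 0.65 in irradiated control and 0.60 in unirradiated control lungs.

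Those differences lie across the split in decimal places. A comparison chosen after seeing the data, of flaxseed mice without radiation against control mice with it, lies within the split. There miR-19a was lower by 4.61 ± 1.22 on the log2 scale (difference −4.61, adjusted p = 0.0398), again the only call among the 8 members, where 13.9% of all assays were called. Without mouse 11 the difference was −2.69 (adjusted p = 0.00735). It missed the threshold when any irradiated control mouse was left out, with adjusted p of 0.0656, 0.109 and 0.13 without mice 7, 8 and 9. It also missed it without mouse 5, 15, 17 or 18 (adjusted p = 0.0529, 0.0609, 0.0571 and 0.0599), scaled to the control RNAs (0.0616), with undetected reactions set to the limit (0.0528), and in a fit of the compared groups alone (0.134).

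All 8 member assays belong to primer pool A, which held 181 of the 296 assays tested. Within pool A, 15.5% of assays were called for flaxseed in unirradiated mice and 5.52% for flaxseed in irradiated mice. That share was 22.1% for radiation on the flaxseed diet and 21% for unirradiated flaxseed against irradiated control lungs. The mean Crt of pool B minus that of pool A was 1.778 in mouse 11 and 2.371 to 2.81 in the other mice. Of the 21 assays lower with flaxseed in unirradiated mice, 19 were in pool A, and miR-19a ranked 3 among them by size. Of the 25 higher with radiation on the flaxseed diet, all 25 were in pool A. With levels scaled within each primer pool, the difference of miR-19a for flaxseed in unirradiated mice was −5.09 (adjusted p = 0.0146). Markers of other cell types moved in the same comparison in both directions. Of 3 ciliated assays 2 were higher and 1 was lower, with a median difference of 0.848. Among them miR-34b-3p was higher by 0.85 ± 0.17 (adjusted p = 0.0115) and miR-34c differed by −3.14 ± 0.57 (adjusted p = 0.0104). The 8 epithelial assays gave 1 higher and 1 lower call with a median difference of 0.206. The endothelial marker miR-126# had levels of 5.41 to 6.51 in unirradiated flaxseed lungs and 7.31 to 8.06 in unirradiated control lungs (difference −1.50, adjusted p = 0.0565). The assay named miR-126, from the same hairpin but outside the marker list, had levels of 8.52 to 9.25 and 9.37 to 9.87 in these groups. No call was made among 4 lymphoid, 4 myeloid, 1 erythroid, 3 smooth muscle and 4 striated muscle assays, with median differences of −0.587, −0.359, −0.609, 0.309 and 0.297. The part of the lower detection in these mice and of these cell types in the result for miR-19a was not tested.

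miR-19b, which shares the seed and all but 1 base, did not follow. Its level was 6.44, 6.70 and 6.65 in irradiated flaxseed lungs, 7.25, 7.65 and 6.57 in unirradiated flaxseed lungs, 6.79, 6.61 and 6.60 in irradiated control lungs, and 8.00, 6.47 and 6.51 in unirradiated control lungs. The groups overlapped, and the unirradiated control mouse 2 was the highest of all. With flaxseed in unirradiated mice its difference was 0.16 ± 0.40, with an interval of −0.72 to 1.05. On the chromosome 14 locus the hairpins of the pair lie at chr14:115044000-115044081 and chr14:115044305-115044391, with miR-20a between them. The miR-19b assay also reads the identical mature strand from the X chromosome, so it gives no reading of Mir19b-1 alone. The hairpins of the pair on chromosome 14 are shown here, with the mature strand in capitals, because the miR-19a and miR-19b assays gave different readings.
Mir19a: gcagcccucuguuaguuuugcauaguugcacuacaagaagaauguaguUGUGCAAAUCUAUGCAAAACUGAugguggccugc
Mir19b-1: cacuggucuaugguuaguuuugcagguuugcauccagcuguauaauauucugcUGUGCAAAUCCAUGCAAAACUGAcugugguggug

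Within the same lung, miR-19a minus miR-19b was −5.60, −4.90 and −5.56 in irradiated flaxseed lungs, −14.71, −9.63 and −8.33 in unirradiated flaxseed lungs, −6.53, −5.81 and −5.05 in irradiated control lungs, and −6.32, −4.41 and −5.63 in unirradiated control lungs. This difference needs no scaling to other assays. The unirradiated flaxseed lungs lay below the other 9. The pair was chosen after its values were seen, and between unirradiated flaxseed and unirradiated control lungs the difference of −5.43 had an exact two-sided permutation p of 0.1, the smallest that 3 against 3 mice allow.

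**Figure D2:**
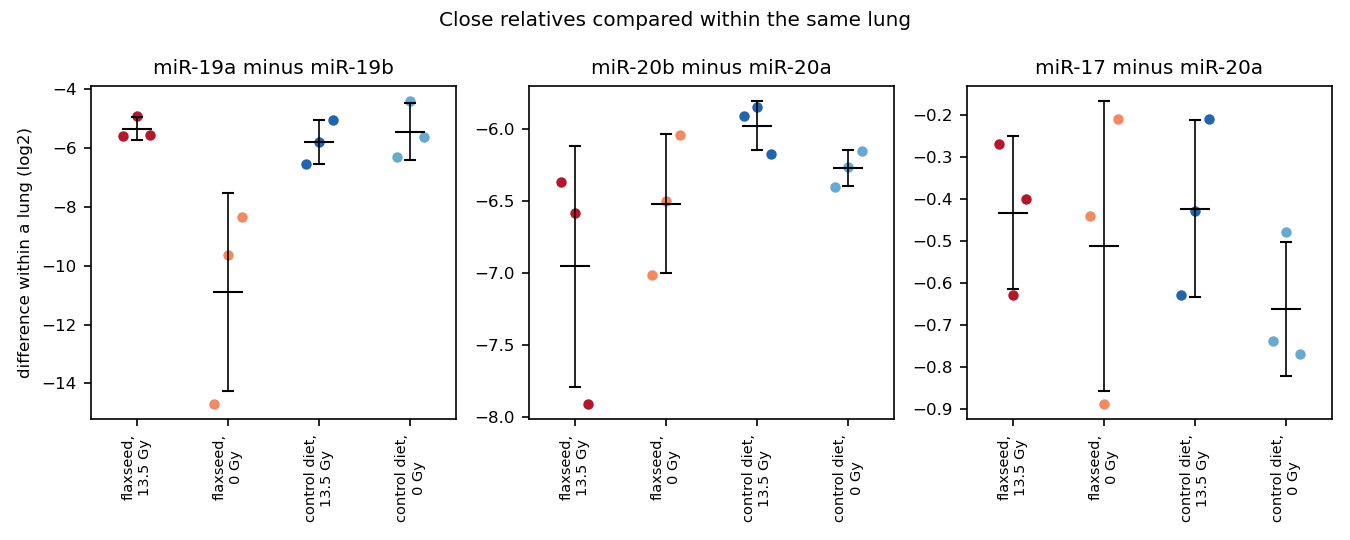
Difference in level between close relatives within the same lung (vertical axis, log2; scales differ between panels) by diet and radiation (horizontal axis). Points are mice, bars are the mean and SD of 3 mice. miR-19a minus miR-19b was −14.71 to −8.33 in unirradiated flaxseed lungs, and −6.53 to −4.41 in the other 9, whereas miR-17 minus miR-20a stayed between −0.89 and −0.21 in all 12.

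The second member to pass a test was miR-20b, of the miR-106a-363 cluster and of the same seed family as miR-17. Its level was −1.83, −1.91 and −2.93 in irradiated flaxseed lungs, −1.36, −1.10 and −0.93 in unirradiated flaxseed lungs, −0.92, −0.91 and −1.0 in irradiated control lungs, and −1.29, −1.02 and −1.24 in unirradiated control lungs. Every irradiated flaxseed lung was below every other lung, and mouse 18 was the lowest. Between irradiated flaxseed and irradiated control lungs, 37.8% of all assays had groups that did not overlap. That share covers these groups alone, and the share with a group below all other lungs is not given here.

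With flaxseed in irradiated mice, miR-20b fell by 1.28 ± 0.27 on the log2 scale, 2.43-fold, with an interval of −1.89 to −0.67 (adjusted p = 0.0222, n = 3 each). This was the only call among the 8 members, in a comparison that called 5.07% of all assays. It missed the threshold when any irradiated control mouse was left out, with adjusted p of 0.0741, 0.0784 and 0.0587 without mice 7, 8 and 9. It also missed it scaled to the control RNAs (−1.37, adjusted p = 0.0726) and with no normalization (−1.23, adjusted p = 0.186). When the unirradiated flaxseed mice were left out of the fit, the difference of −1.28 had an adjusted p of 0.0333. This comparison also lies across the split in decimal places. Within the split, against unirradiated control lungs, the difference of miR-20b was −1.04 ± 0.27 and did not pass (adjusted p = 0.119). Its groups did not overlap there, as was so for 20.6% of all assays.

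Lymphoid markers were lower in the same comparison. miR-150, a microRNA of mature lymphocytes, fell by 1.70 ± 0.29 (adjusted p = 0.0102) and miR-342-3p by 1.15 ± 0.23 (adjusted p = 0.021). They were 2 of the 4 lymphoid assays, whose median difference was −1.43, and their summed level (log2) was 4.39 to 4.74 in irradiated flaxseed lungs and 5.46 to 5.96 in irradiated control lungs. Of the other lists, 1 of 8 epithelial and 1 of 4 striated muscle assays were higher, and none of the 4 myeloid, 3 ciliated, 3 smooth muscle, 1 erythroid or 1 endothelial assays passed. The part of lymphoid cells in the result for miR-20b was not tested.

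On the flaxseed diet, miR-20b was lower with radiation than without by 1.10 ± 0.27 (difference −1.10, 2.14-fold, adjusted p = 0.0249). This comparison, too, lies across the split in decimal places. Together with miR-19a in the other direction, miR-20b made 2 calls among the 8 members. The comparison called 14.5% of all assays and 22.1% of those in primer pool A. Scaled to the median assay or within primer pools the difference of miR-20b was −1.18 and −1.20 and passed (adjusted p = 0.0248 and 0.0168). It did not pass after quantile normalization (−0.89, adjusted p = 0.0839), with the authors' deposited normalized values (−0.93, 0.0642), with array weights (−1.17, 0.06), without any normalization (−0.23, 0.7), relative to the control RNAs (−0.90, 0.172) or in a fit of the compared groups alone (−1.10, 0.0982). Leaving out mouse 12, 13, 17 or 18 gave adjusted p of 0.0527, 0.0758, 0.0503 and 0.0517, and the difference was −0.74 without mouse 18. In the same comparison the lymphoid marker miR-342-3p fell by 0.92 ± 0.23 (adjusted p = 0.0247), 1 of 4 lymphoid assays called. The endothelial marker miR-126# rose by 1.93 ± 0.46 (adjusted p = 0.0247). The assay named miR-126, outside the marker list, had levels of 9.39 to 9.83 in irradiated and 8.52 to 9.25 in unirradiated flaxseed lungs. Ciliated and epithelial assays gave calls in both directions, 1 higher and 2 lower of 3 and 1 higher and 2 lower of 8. None of the 4 myeloid, 1 erythroid, 3 smooth muscle and 4 striated muscle assays passed. The part of these cell types was not tested.

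Against its relatives within the same lung, miR-20b minus miR-20a was −6.37, −6.58 and −7.91 in irradiated flaxseed lungs and −5.91, −5.85 and −6.17 in irradiated control lungs, with no overlap. It was −7.01, −6.50 and −6.04 in unirradiated flaxseed lungs and −6.40, −6.26 and −6.15 in unirradiated control lungs, and both overlapped the irradiated flaxseed lungs. miR-20b minus miR-106a, its neighbour on the X chromosome, was −5.71 ± 0.54 in irradiated flaxseed lungs, −4.37 ± 0.50 in unirradiated flaxseed lungs, −4.13 ± 0.30 in irradiated control lungs and −4.88 ± 0.56 in unirradiated control lungs (SD, n = 3 each). Both pairs were chosen after their values were seen. For flaxseed in irradiated mice both had an exact two-sided permutation p of 0.1, the smallest possible here. For radiation on the flaxseed diet the exact p was 0.6 for miR-20b minus miR-20a (difference −0.44) and 0.1 for miR-20b minus miR-106a (difference −1.34).

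**Figure D3:**
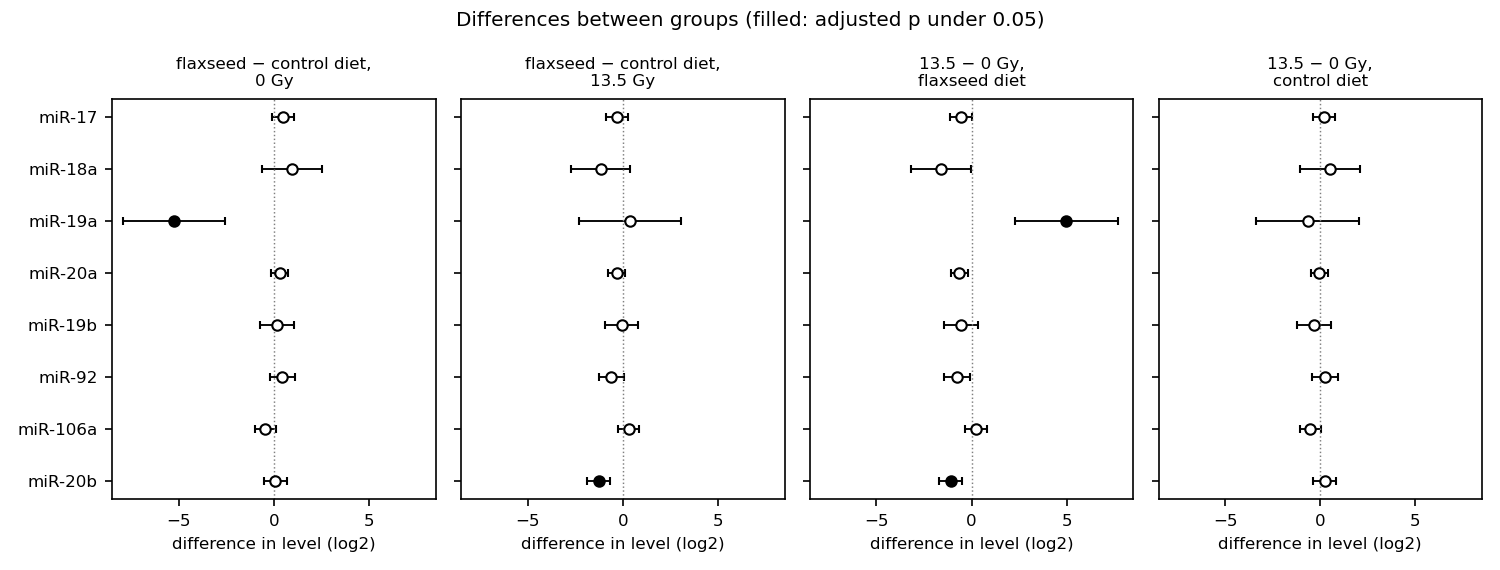
Difference in level (horizontal axis, log2) of the 8 microRNAs (vertical axis) in 4 comparisons, each the group named before the minus sign minus the one after it. Points are limma estimates from 3 mice a group, bars are 95% confidence intervals, and filled points have an adjusted p under 0.05. miR-19a passed for flaxseed in unirradiated mice and for radiation on the flaxseed diet, and miR-20b for flaxseed in irradiated mice and for radiation on the flaxseed diet.

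None of the remaining members of the AAAGUGC family passed a test. miR-17, which gives the cluster its name and restrains the cell-cycle inhibitor p21 and E2F1, had a level of 4.26, 4.03 and 4.58 in irradiated flaxseed lungs, 5.20, 4.52 and 4.89 in unirradiated flaxseed lungs, 4.36, 4.51 and 4.97 in irradiated control lungs, and 4.37, 4.77 and 4.14 in unirradiated control lungs. The neighbouring groups in the order of its means overlapped throughout. In the 4 comparisons that change diet or radiation alone, its differences were between −0.58 ± 0.26 for radiation on the flaxseed diet and 0.45 ± 0.26 for flaxseed in unirradiated mice, and neither passed (adjusted p = 0.157 and 0.281).

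miR-20a followed miR-17 closely, with a level of 4.53, 4.66 and 4.98 in irradiated flaxseed lungs, 5.65, 5.40 and 5.11 in unirradiated flaxseed lungs, 4.99, 4.94 and 5.18 in irradiated control lungs, and 5.10, 5.25 and 4.91 in unirradiated control lungs. The flaxseed groups did not overlap, as was so for 5 of the 8 members and 44.6% of all assays. The difference for radiation on the flaxseed diet was −0.66 ± 0.20 (adjusted p = 0.0521). That difference passed under 6 alternatives, without mouse 13 among them (−0.79, adjusted p = 0.0346), and was 0.21 with no normalization. The differences between miR-17 and miR-20a in the same lung averaged −0.43 ± 0.18 in irradiated flaxseed lungs, −0.51 ± 0.34 in unirradiated flaxseed lungs, −0.42 ± 0.21 in irradiated control lungs and −0.66 ± 0.16 in unirradiated control lungs (SD, n = 3 each).

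miR-106a had a level of 3.45, 3.61 and 3.38 in irradiated flaxseed lungs, 3.39, 3.45 and 2.87 in unirradiated flaxseed lungs, 2.95, 3.14 and 3.46 in irradiated control lungs, and 4.21, 3.41 and 3.48 in unirradiated control lungs. The groups overlapped in the order of their means, and mouse 2 was the highest, as it was for miR-19b. For radiation on the control diet its difference of −0.52 ± 0.26 had the smallest adjusted p of the 8 members, 0.6.

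miR-18a, of the miR-18 family, varied most between mice of 1 group after miR-19a. Its level was −3.18, −3.93 and −3.50 in irradiated flaxseed lungs, −2.39, −0.30 and −3.15 in unirradiated flaxseed lungs, −3.25, −1.03 and −2.80 in irradiated control lungs, and −3.09, −2.55 and −2.98 in unirradiated control lungs. Mice 12 and 8 were far above the other 10. The differences for flaxseed were 0.93 ± 0.71 in unirradiated mice and −1.17 ± 0.71 in irradiated mice, and neither passed (adjusted p = 0.392 and 0.399). For radiation on the flaxseed diet the difference was −1.59 ± 0.71 and did not pass (adjusted p = 0.15). The flaxseed groups did not overlap, as was so for 44.6% of all assays.

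The assay named miR-92, for the last member of the miR-17-92 cluster, known in endothelial cells as a brake on vessel growth, had a level of 3.91, 4.14 and 3.97 in irradiated flaxseed lungs, 5.37, 4.43 and 4.57 in unirradiated flaxseed lungs, 5.13, 4.60 and 4.11 in irradiated control lungs, and 4.12, 4.56 and 4.40 in unirradiated control lungs. The flaxseed groups did not overlap, as was so for 44.6% of all assays, and the difference for radiation on that diet, −0.78 ± 0.31, did not pass (adjusted p = 0.104). With flaxseed in irradiated mice the difference was −0.60 ± 0.31 (adjusted p = 0.288), and it passed under 1 alternative, array weights (−0.63, adjusted p = 0.0491).

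Over the 8 members, the median difference was 0.231 for flaxseed in unirradiated mice, beside 0.22 over all 296 assays, and −0.317 for flaxseed in irradiated mice, beside 0.0113. It was −0.619 for radiation on the flaxseed diet, beside −0.25 over all assays, with 6 members below 0 and 2 above. With no normalization 2 were below 0 and 6 above. In the same comparison 5 members and 96 of all assays had an unadjusted p under 0.05 by limma. For radiation on the control diet the median was 0.0695, beside 0.00641. That comparison called none of the 8 and 0% of all assays by limma, and 0 of the members and 30 of all assays had an unadjusted p under 0.05.

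Pooled over radiation, flaxseed gave no call among the members where 10.5% of all assays were called. The differences were −0.62 ± 0.19 for miR-20b (adjusted p = 0.0721) and −2.45 ± 0.86 for miR-19a (adjusted p = 0.101), and these were the 2 members with an unadjusted p under 0.05, as 88 of all assays had. Without mouse 11 the pooled difference of miR-19a was −1.49 and passed (adjusted p = 0.0155), as it did without mouse 13 (−2.95, adjusted p = 0.0462). Pooled over diet, radiation gave no call among the members and called 0% of all assays, and for 2 members and 50 of all assays the unadjusted p was under 0.05. Among the members the lowest adjusted p was 0.239, for miR-19a (2.15 ± 0.86) and miR-20a (−0.35 ± 0.14).

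In irradiated flaxseed lungs against unirradiated control lungs, a comparison within the split in decimal places, all 8 differences were below 0, with a median of −0.355 beside 0.000382 over all assays. None passed, where 0.338% of all assays were called, and 1 member and 39 of all assays had an unadjusted p under 0.05. That member was miR-20b, given above. With no normalization 6 of the 8 were below 0 and 2 above.

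The interaction of diet with radiation was called for no member where 8.45% of all assays were called. It was −1.34 ± 0.39 for miR-20b (adjusted p = 0.0557) and 5.64 ± 1.72 for miR-19a (adjusted p = 0.0627), and 3 members and 86 of all 296 assays had an unadjusted p under 0.05. For miR-19a it passed without mouse 11 (3.70, adjusted p = 0.0064), without mouse 12 (6.51, adjusted p = 0.0482) and without mouse 13 (6.63, adjusted p = 0.0477). For miR-20b it passed without mouse 11 (−1.52, adjusted p = 0.0354).

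A further paralogous cluster, on chromosome 5, makes miR-106b, miR-93 and miR-25, which carry the seeds of miR-17 and of miR-92a. Their sequences are given for that comparison, again with the seed in capitals.
miR-106b: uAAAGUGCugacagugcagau
miR-93: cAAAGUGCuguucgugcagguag
miR-25: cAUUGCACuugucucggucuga
The level of miR-25 was −0.61, 0.92 and −0.56 in irradiated flaxseed lungs, −4.95 and −3.48 in unirradiated flaxseed mice 12 and 13, −1.10, −0.62 and −0.42 in irradiated control lungs, and −0.32, 0.12 and −0.50 in unirradiated control lungs. It was undetected in mouse 11, which the fit left out for this assay. With flaxseed in unirradiated mice, miR-25 fell by 3.98 ± 0.54 (15.8-fold, adjusted p = 0.00527) and miR-93 fell by 1.09 ± 0.24 (2.12-fold, adjusted p = 0.0146). For miR-106b, of the same cluster, the difference was 0.42 ± 0.20 (adjusted p = 0.191).

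On the flaxseed diet, miR-25 was higher with radiation by 4.13 ± 0.54 (adjusted p = 0.00777) and miR-93 by 1.22 ± 0.24 (adjusted p = 0.013). Their interactions of diet with radiation were 4.61 ± 0.73 (adjusted p = 0.0273) and 1.24 ± 0.33 (adjusted p = 0.0459). The split in decimal places runs along these interactions, and the differences of both microRNAs for flaxseed and for radiation lie across it.

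**Figure D4:**
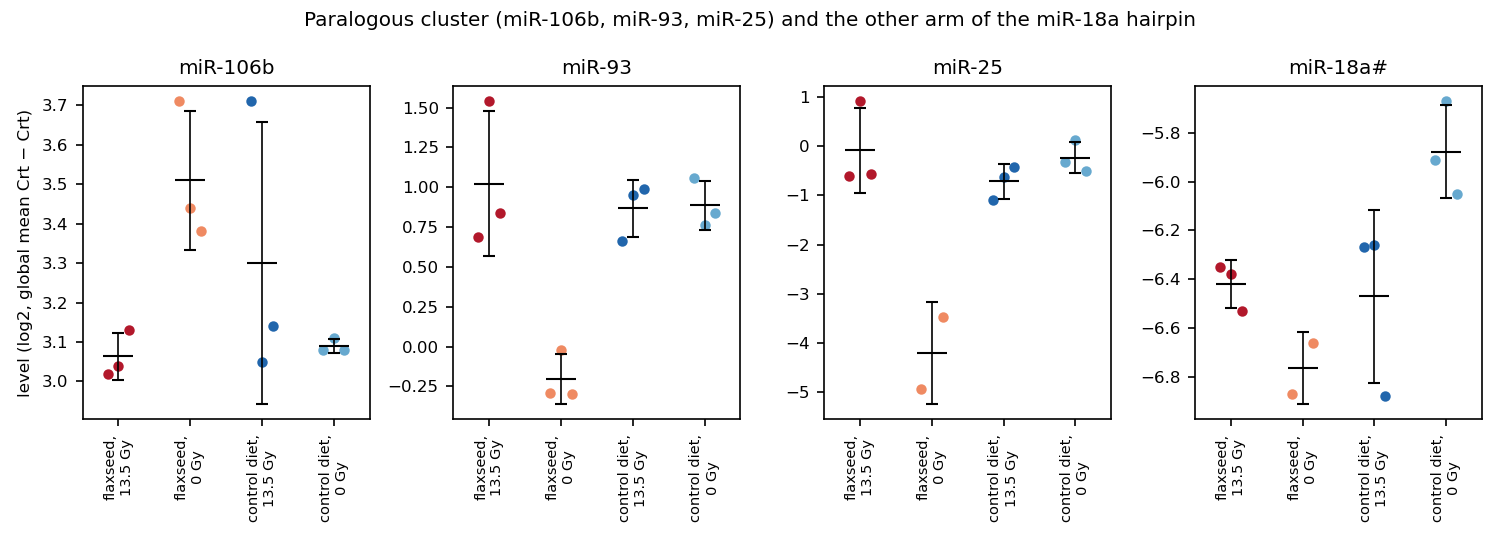
Level of miR-106b, miR-93, miR-25 and miR-18a# (vertical axis, log2; scales differ between panels) by diet and radiation (horizontal axis). Points are mice and bars the mean and SD of detected mice, which are 2 for miR-25 and miR-18a# in unirradiated flaxseed lungs and 3 otherwise. The unirradiated flaxseed lungs lie below all others for miR-93 and miR-25, but not for miR-106b.

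Of the other strands of the member hairpins, marked # in the assay names, those of miR-17, miR-18a and miR-20a were tested. With flaxseed in unirradiated mice miR-18a# fell by 0.89 ± 0.24 (adjusted p = 0.041), while the difference of miR-18a itself was 0.93 ± 0.71. The Crt of miR-18a# was 26.93 in mouse 12 and 27.86 in mouse 13, near the detection limit of 28. Mouse 11 read 28.26, just over that limit, and was left out. The differences of miR-17# and miR-20a# were 0.08 ± 0.32 and 0.24 ± 0.29 (adjusted p = 0.861 and 0.609). With miR-106b, miR-93, miR-25 and miR-32, these made 7 relatives tested, of which 3 fell and none rose with flaxseed in unirradiated mice, where 12.2% of all assays were called. On the flaxseed diet 2 of the 7 rose with radiation and none fell, where 14.5% of all assays were called. With flaxseed in irradiated mice, and for radiation on the control diet, none of the 7 passed.

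Across all 12 mice, the levels of miR-17 and miR-20a had a Pearson's r of 0.78, the highest of the 28 pairs of members. The lowest was −0.70, for miR-19a and miR-92, and 11 pairs were below 0. Over the 28 pairs of members the median r was 0.174, beside 0.0365 over 12880 pairs of pool A assays, and with group means removed it was −0.0638, beside 0.00633. The assays most like miR-19a over 12 mice were miR-195 (r = 0.99) and miR-429 (r = 0.98), which were low in the same 3 mice. Over the other 9 mice these r were 0.88 and 0.65. miR-195 fell by 3.25 ± 0.73 with flaxseed in unirradiated mice (adjusted p = 0.0165). Those most like miR-20b were miR-1198 (r = 0.84) and miR-320 (r = 0.83), which became 0.81 and 0.76 without the 2 mice farthest from its median. For miR-17 they were miR-362-5p (r = 0.86) and miR-224 (r = 0.85), and for miR-106a miR-126 (r = 0.88) and miR-16 (r = 0.87). Without the 2 mice farthest from the median of each member, these became 0.71 and 0.66 for miR-17, and 0.88 and 0.72 for miR-106a. These r describe shared samples, scaling and RNA input, and carry no test.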

How the data were processed

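Lung RNA from 12 mice in 4 groups of 3 was profiled by the authors. Primer pools A and B were used to copy 100 ng of RNA, followed by 12 cycles of pre-amplification and OpenArray slides, per the labels. The authors deposited threshold cycles, a log2 scale, and a second table of normalized log2 values by name. The sources used here do not state how Crt was called, and PCR efficiency was taken as a doubling per cycle.

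The Crt table gives assays by position. Names were carried over by matching within-mouse ranks between the tables, and all 322 named assays with values matched, each next candidate being at least 7.13 times farther off; 4 assays with 40 values stayed unnamed and were left out. Member positions in both tables differed by at most 1.

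An assay was detected at a Crt below 28 and tested when at least 2 mice in every group had it; undetected reactions were missing. Levels were scaled to the mean of 260 assays detected in all mice. A limma (3.58.1, R 4.3.3) fit of 4 group means had 8 residual and 2.412 prior degrees of freedom, and p was adjusted by Benjamini-Hochberg over 296 assays with a call under 0.05. The fit was tested on simulated data. Pairs within a lung were compared by exact two-sided permutation (SciPy 1.17.1). Reactions carry no read depth, so the number of mice limits precision. Each mouse is a separate animal, so replicates are biological.

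Named members are those of the name rule with the assay named miR-92, relatives were listed by cluster, hairpin arm or seed, and the most alike assays are the 2 with the highest r. Members, relatives and the lymphoid, myeloid, erythroid, epithelial, ciliated, endothelial, muscle and liver lists were chosen with earlier results of these data known. Other scalings, Crt limits, filters, fits and left-out mice were tried as alternatives; 1 comparison, 1 alternative fit and the pairs were added after seeing the data.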

Additional observations from a re-analysis of the deposited data

How the results depend on the processing

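The members called in each comparison were recounted under 26 to 28 alternatives. With flaxseed in unirradiated mice the count of 1 became 0 in a fit of the compared groups alone, and was 0 to 1 with each mouse left out in turn. With flaxseed in irradiated mice the count of 1 became 0 when scaled to the control RNAs or without normalization, 2 with array weights, and 0 to 1 leaving out mice. For radiation on the flaxseed diet the count of 2 became 1 after quantile normalization, scaled to the control RNAs, without normalization, with the authors' normalized values and with array weights, 3 (with miR-20a) scaled to the median assay, at a Crt limit of 30 or none, over assays detected in all 12 mice and in a trended robust fit, 0 in the fit of the compared groups alone, and 0 to 2 leaving out mice. For flaxseed pooled over radiation the count of 0 became 1 (miR-19a) at a Crt limit of 26, with array weights and without mice 2 and 11, and 0 to 1 leaving out mice. For the interaction the count of 0 became 1 for miR-20b scaled to the median assay or within primer pools, 1 for miR-19a without normalization, at a Crt limit of 26, with array weights and without mice 2 and 11, and 0 to 2 leaving out mice. For flaxseed mice without radiation against control mice with it, the count of 1 became 0 scaled to the control RNAs, with undetected reactions set to the limit and in the fit of the compared groups alone, and 0 to 1 leaving out mice. The cause of these changes was not tested. A fit of the compared groups alone and a left-out mouse leave fewer samples. In the fit of the compared groups alone, calls over all assays went from 36 to 9 for flaxseed in unirradiated mice. They went from 15 to 48 for flaxseed in irradiated mice. Radiation on the control diet, radiation pooled over diet, and both treatments against neither kept a count of 0 under every alternative run.

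No called difference of a member changed sign. Of the 67 uncalled differences 38 changed sign in at least 1 alternative, and 5 were called in at least 1. Removing normalization shifted the median of all assays by 0.86 for radiation on the flaxseed diet and by −0.59 for flaxseed in unirradiated mice. Relative to that median, miR-20b was at −0.84 and miR-19a at 5.23 for radiation on the flaxseed diet. Over all assays, the calls ranged from 9 to 60 around 36 for flaxseed in unirradiated mice, from 1 to 66 around 15 for flaxseed in irradiated mice, and from 0 to 65 around 43 for radiation on the flaxseed diet. They ranged from 6 to 47 around 31 for flaxseed pooled over radiation, from 0 to 19 around 0 for radiation pooled over diet, from 0 to 2 around 0 for radiation on the control diet, from 0 to 17 around 1 for both treatments against neither, from 0 to 35 around 25 for the interaction, and from 2 to 44 around 41 for flaxseed mice without radiation against control mice with it. No paired analysis was possible because no mouse number occurs in more than 1 group. Groups of 3 mice, and a Crt near the limit for miR-19a in mouse 11, limit the precision.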
